A study of Rattus norvegicus with 2 samples.

Results

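The array carried 3 genes whose deposited names place them in the 60S, or large, subunit of the ribosome, out of 1185 genes in all. They are Rpl36a (deposited as 60S ribosomal protein L44; L36A, array position C11d), Rpl21 (60S ribosomal protein L21, C11l) and Rpl19 (60S ribosomal protein L19, C11m). A row was taken where its name held both 60S and ribosomal, kinases and the control row of the array being left out. The rule uses names and no measured value, but it was chosen with earlier results of these data known. Another 4 large subunit genes, deposited as ribosomal protein L10, L11, L12 and L13 without 60S in the name, fell outside that rule and are given beside the members. Carotid body cells of Sprague Dawley rats, 16 carotid bodies per primary culture, were dissociated and cultured for 7 days in medium with serum and nerve growth factor. The normoxia cultures had 21% oxygen and the chronic hypoxia cultures 1% oxygen, in a chamber flushed daily with fresh gas. RNA was amplified before it was labelled with 32P and hybridised to nylon membranes, and each condition has 3 membranes, numbered 1 to 3. The labels name neither separate cultures nor separate animals for the membranes, so each p-value reflects the spread from membrane to membrane, which may be technical.

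The large subunit holds the catalytic centre that joins amino acids and the tunnel through which the new protein leaves. Most of its proteins are needed in equal amounts, and they are made from messenger RNAs that are among the most abundant of most cells. These messenger RNAs share a pyrimidine-rich start, the terminal oligopyrimidine motif through which the mTOR pathway controls their translation. Ribosome production is costly in energy and is known to be held back in many cells when oxygen is scarce, largely at the level of translation and of ribosomal RNA, which a messenger RNA array does not read. Rpl36a lies near the exit site for transfer RNA, Rpl19 reaches across to the small subunit, and Rpl21 is a protein found in archaea and eukaryotes but not in bacteria.

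The sequences around the annotated start of each member are shown because each holds a long pyrimidine run nearby, although its place relative to the start differs between the members. All 3 symbols matched the RefSeq promoter table of build GRCr8, and each line gives 30 bases before and 30 bases from the start on, read 5′ to 3′ on the transcribed strand. Capitals mark the longest unbroken run of C and T that begins with C.
Rpl36a, chrX:102059419-102059478, plus strand: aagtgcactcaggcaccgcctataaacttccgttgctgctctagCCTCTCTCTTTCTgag
Rpl21, chr12:13386124-13386183, minus strand: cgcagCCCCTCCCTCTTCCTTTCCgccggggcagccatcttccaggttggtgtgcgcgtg
Rpl19, chr10:83519034-83519093, plus strand: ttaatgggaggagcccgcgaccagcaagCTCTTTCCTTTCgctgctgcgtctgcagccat

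The run was 13 bases long in Rpl36a, 19 in Rpl21 and 12 in Rpl19. Counting the annotated start as base 1, it spanned bases 15 to 27 in Rpl36a, bases -25 to -7 in Rpl21 and bases -2 to 10 in Rpl19. Only the run of Rpl19 thus spans the annotated start, while that of Rpl21 lies before it and that of Rpl36a within the transcript. A run of at least 12 bases stood in this window in 3.85% of the 33469 promoters of the table and in 26 of its 62 ribosomal protein genes. Of the large subunit genes outside the rule, Rpl10 had a run of 12, Rpl13 of 7, Rpl12 of 6 and Rpl11 of 3. The window and the length limit were chosen after these sequences were read, and annotated starts can lie some bases from the true ones. The core letters of the site bound by the hypoxia-inducible factors, ACGTG and GCGTG, were searched on both strands of the whole 300 bases (250 before and 50 from the start on). They occurred once in Rpl21 (GCGTG, beginning at base 26, the last letters of its line above) and in neither Rpl36a nor Rpl19. Among the large subunit genes outside the rule, Rpl10, Rpl11 and Rpl12 held 1 match each and Rpl13 held 2. Over all promoters, 41.6% held at least 1 match. Such matches are letters in a window and no measurement of binding.

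The cDNA on each spot may also have bound RNA from copies of the gene, which were counted by name and not compared in sequence. RefSeq lists 19 further entries under the name of Rpl36a and its like, 17 of them pseudogenes and 1 the protein-coding copy Rpl36al1. Under the name of Rpl21 it lists 13 further entries, 6 of them pseudogenes and 7 protein-coding, and under that of Rpl19 it lists 18, with 15 pseudogenes and 3 protein-coding entries. Values of the members may thus be uncertain as to which copy they report, and the part of such copies was not tested.

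Spots were read as linear intensity with background included. The background limit of a membrane was set at its median plus 3 times the spread measured on the values under that median. It came to values from 3327 to 6647 on 5 membranes and to 19649 on chronic hypoxia membrane 3, whose lowest intensity was 14591 against 309 to 412 elsewhere. Between 66 genes (chronic hypoxia membrane 2) and 197 genes (normoxia membrane 3) were above background. Over all genes, which are not independent replicates, chronic hypoxia membranes 1 and 3 had a rank correlation of 0.772, and no other pair of membranes exceeded 0.580. Of 10 rows naming genes of chemoreceptor (glomus) cells, 3 were above background on all 6 membranes (the dopamine transporter, dopamine beta-hydroxylase and carboxypeptidase E) and 7 on none, while 0 of 6 glial, 1 of 26 immune, 1 of 9 fibroblast and 1 of 5 endothelial rows reached 3 membranes. The immune row (CD9) and the endothelial row (nitric oxide synthase 3) among these were also above background on all 6 membranes. All these rows were picked by name. Those called fibroblast hold only matrix metalloproteinases and their inhibitors, and those called immune hold CD antigens, interleukin receptors and Fc receptors. Whether such genes are confined to 1 cell type in this culture was not tested. In RNA from a mixed culture, fewer cells of a type and less RNA per cell cannot be told apart.

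All 3 members were above background on at least 3 of the 6 membranes, as were 12.2% of the genes of the array. Each of the 4 large subunit genes outside the rule also reached 3 membranes.

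Rpl36a was above background on all 6 membranes, as were 3.8% of the genes of the array. In normoxia its intensity was 47257, 15538 and 31075 (membranes 1 to 3), and under chronic hypoxia it was 39946, 10430 and 40143. Normoxia membrane 1 was the brightest and chronic hypoxia membrane 2 the dimmest, and the groups overlapped. Ranked from the brightest of 1185 genes, Rpl36a took places 20, 43 and 48 on the normoxia membranes and places 20, 32 and 37 on those of chronic hypoxia. The rank takes out the differences in brightness and offset between membranes, and by rank as well the groups overlapped.

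Rpl21 had an intensity of 10111, 7027 and 17926 in normoxia and of 20450, 4748 and 35747 in chronic hypoxia. It was above background on 5 membranes and missed the limit of 6647 on chronic hypoxia membrane 2. Its rank was 88, 110 and 83 in normoxia and 42, 208 and 51 in chronic hypoxia. Chronic hypoxia membranes 1 and 3 thus placed it higher, and membrane 2 lower, than any normoxia membrane did.

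Rpl19 had an intensity of 3775, 7336 and 13574 in normoxia and of 8552, 5266 and 27047 in chronic hypoxia. It was above background on 2 membranes of each condition, missing the limit of 4953 on normoxia membrane 1 and of 6647 on chronic hypoxia membrane 2. Its rank was 231, 100 and 106 in normoxia and 78, 138 and 87 in chronic hypoxia. As for Rpl21, chronic hypoxia membranes 1 and 3 gave the best ranks, but here the single lowest rank came from a normoxia membrane, and the groups overlapped.

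**Figure D1:**
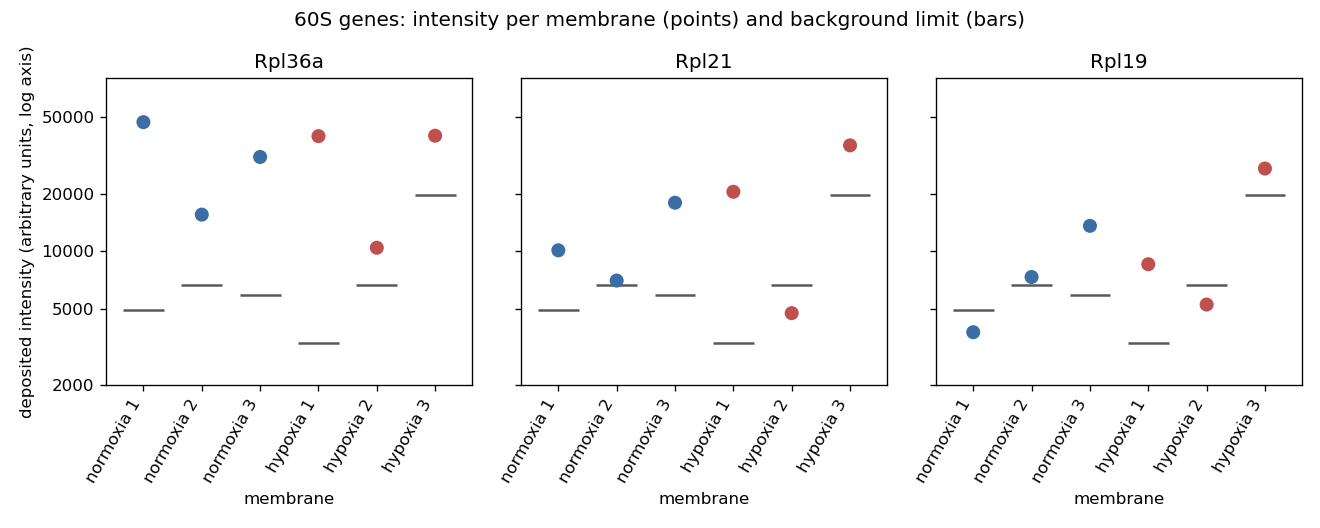
Deposited intensity (arbitrary units, log axis) of Rpl36a, Rpl21 and Rpl19 on each of the 6 membranes (blue points normoxia, red points chronic hypoxia), with a grey bar at each membrane's background limit. Rpl36a lies above the bar on all 6 membranes, Rpl21 on 5 and Rpl19 on 4, and the raised bar of chronic hypoxia membrane 3 (19649) shows its offset.

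To ask whether chronic hypoxia altered these messages, the membranes were background corrected, put on a log2 scale and quantile normalized, and limma was fitted over the 1038 genes that passed a filter on dim spots. All 3 members passed that filter, and none of the 3 was called. Rpl36a averaged 14.37 ± 0.68 (SD, n = 3) in normoxia on the normalized log2 scale, and under chronic hypoxia it averaged 14.66 ± 0.43 (SD, n = 3). The log2 difference, chronic hypoxia minus normoxia, was 0.28 with an SE of 0.59 and a 95% interval from -1.02 to 1.59 (limma, Benjamini-Hochberg adjusted p = 0.922). Rpl21 had 12.87 ± 0.26 (SD, n = 3) and 13.20 ± 1.35 (SD, n = 3), which gives a log2 difference of 0.33 (SE 0.71) and an interval from -1.25 to 1.91 (limma adjusted p = 0.923). Its spread was wider among the chronic hypoxia membranes (normalized log2 intensities of 14.15, 11.65 and 13.80) than among the normoxia membranes (12.99, 12.57 and 13.06). Rpl19 had 12.31 ± 0.68 (SD, n = 3) and 12.77 ± 0.50 (SD, n = 3), which gives a log2 difference of 0.46 (SE 0.60) and an interval from -0.86 to 1.78 (limma adjusted p = 0.863). Each difference was smaller than its own SE, and each interval takes in 0 as well as 1, which on this scale is a doubling.

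The background of this comparison was equally without calls, since 0 of the 1038 genes (0%) passed the adjusted threshold and 75 (7.23%) had an unadjusted p under 0.05. Among the members 0 of 3 had an unadjusted p under 0.05, and 0 of 3 differed by at least 2-fold, as 22.9% of all tested genes did. Their groups overlapped in 3 of 3 cases, where 13.9% of all tested genes had groups that did not overlap. The median log2 difference of the members was 0.33, against 0.03 over all tested genes, of which 51.8% were higher in chronic hypoxia. How precise each value can be is limited by the 3 membranes per condition. No member came within 5% of the ceiling of the scan on any membrane.

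The other large subunit genes gave the same order of size. Rpl11, which with the 5S ribosomal RNA can bind the p53 regulator Mdm2, was above background on all 6 membranes. Its means were 14.24 ± 0.15 (SD, n = 3) and 14.60 ± 0.33 (SD, n = 3), which differ by 0.36 (SE 0.53, limma adjusted p = 0.863), and it had the smallest spread of the large subunit genes in normoxia. Rpl13 differed by 0.47 and Rpl12, a protein at the base of the ribosomal stalk, by 0.31, and each passed the background limit on 1 membrane of normoxia and 2 of chronic hypoxia. Rpl10, which sits near the catalytic centre, was the large subunit gene with a negative log2 difference, -0.73 (SE 0.56, limma adjusted p = 0.764). Over all 7 large subunit genes the log2 differences ran from -0.73 to 0.47, with a median of 0.33 against 0.03 over all tested genes. Of the 7, 6 were above 0, where 51.8% of all tested genes were, and 0 were called, as over the whole array.

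**Figure D2:**
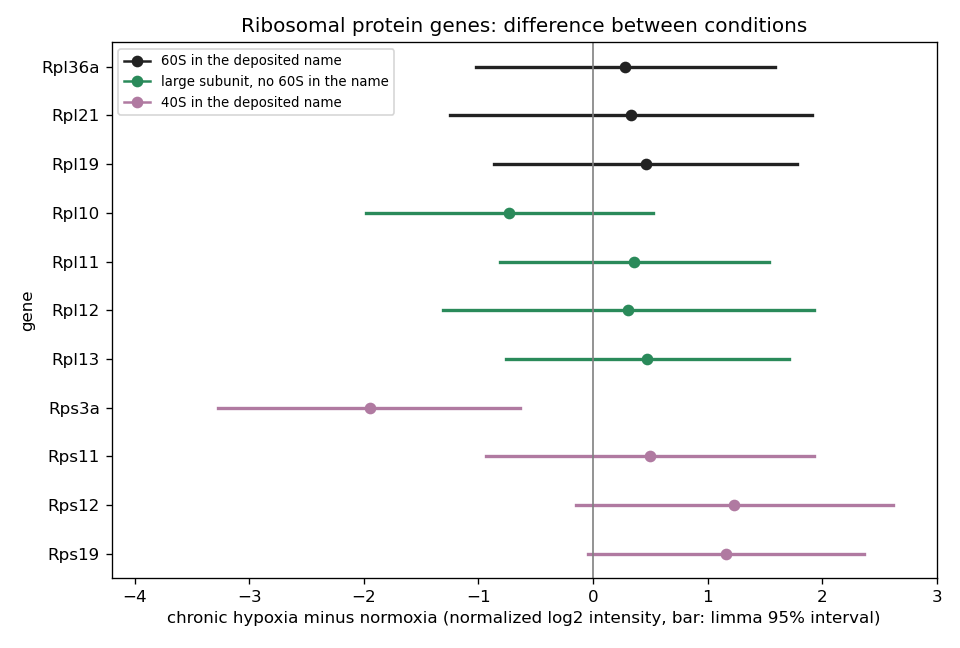
Log2 difference in normalized intensity, chronic hypoxia minus normoxia, with its limma 95% interval for 7 large subunit and 4 small subunit genes. Black marks 60S in the deposited name, green the other large subunit genes and purple 40S in the deposited name. Ribosomal protein S4 and Rps29 of the control row are not drawn. The 3 members lie between 0.28 and 0.46 with intervals across 0, and the 40S genes shown range from -1.95 to 1.23.

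For the 40S, or small, subunit 4 genes are given here, a part of those on the array, so their median describes these 4 alone. Their log2 differences ran from -1.95 (Rps3a) to 1.23 (Rps12) with a median of 0.83, and 0 of 4 were called. Outside these 4, ribosomal protein S4 of the translation list (-0.52) and Rps29 of the control row (-0.89) also belong to the small subunit. Both lay below 0, so the median of 0.83 depends on which rows are taken. The value of Rps29 is not exact, since 1 spot in each condition was near the ceiling. The groups of Rps3a and Rps19 did not overlap, as was so for 13.9% of all tested genes. Those of ribosomal protein S4, Rps29 and all 7 large subunit genes overlapped. Rps3a, a protein near the exit of the messenger RNA, had the smallest p of the 4 (log2 difference -1.95, SE 0.59, limma adjusted p = 0.645, not exact because 1 normoxia spot was near the ceiling). Rps19, which is needed for the maturation of the small subunit, came next (1.16, SE 0.54, limma adjusted p = 0.645) and was above background on 3 membranes. The difference between the subunits was not tested.

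Of 11 further genes of ribosome and translation, 5 had log2 differences above 0 and 6 below, the median was -0.42 and 0 were called. That list takes in the 4 large subunit genes above, ribosomal protein S4, the initiation and elongation factors and the ribosomal protein S6 kinase Rsk. Rsk, a signalling enzyme, was above background on no membrane (0.37). Rpl10 and the mitochondrial elongation factor G (-1.27, SE 0.98, limma adjusted p = 0.764) had the smallest p. On chronic hypoxia membrane 2 the spot of elongation factor G was below the background limit. Its normalized log2 value there was 8.21, against 12.29 and 12.12 on chronic hypoxia membranes 1 and 3 and a normoxia mean of 12.14. In the control row of the array, 0 of 9 genes were called (median -0.11). The smallest p there belonged to cytoplasmic beta-actin (-1.33, SE 0.73, limma adjusted p = 0.645) and to phospholipase A2 (1.15, SE 0.68, limma adjusted p = 0.658). Beta-actin was above background on 1 membrane of each condition. In normoxia it read 26202 on membrane 3, against 3878 and 5582 on membranes 1 and 2. Phospholipase A2 was above background on no membrane.

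The log2 gaps between the members within a membrane do not depend on the scaling between membranes. The background-corrected log2 value of Rpl36a exceeded that of Rpl21 by 2.35, 1.41 and 0.83 on the normoxia membranes, and by 0.99, 1.6 and 0.27 on the chronic hypoxia membranes. It exceeded that of Rpl19 by 4.09, 1.33 and 1.25 in normoxia, and by 2.31, 1.36 and 1.04 in chronic hypoxia. Between Rpl21 and Rpl19 the log2 gap was 1.74, -0.08 and 0.43 in normoxia, against 1.33, -0.25 and 0.77 in chronic hypoxia. The conditions overlapped in all 3 gaps. Rpl19 on normoxia membrane 1, and Rpl21 and Rpl19 on chronic hypoxia membrane 2, were below the background limit, so the gaps that use those spots are not exact and no test of the gaps is given. These gaps compare membranes and not the amounts of the genes, since different spots bind with different strength.

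Brighter spots lie beside the members on the membrane. The spot for the proprotein convertase Pcsk7 at C11c, next to Rpl36a, was brighter than Rpl36a on all 6 membranes, with 34396 to 61804 in normoxia and 56960 to 61485 in chronic hypoxia. Acetylcholinesterase at C10l, whose position differs from that of Rpl21 by 1 in its number, read 46038 to 65535 in normoxia and 63900 to 65535 in chronic hypoxia. The NADP+ alcohol dehydrogenase at C10m, in the same relation to Rpl19, read 26245 to 64773 and 49257 to 62132. The Pcsk7 spot was bright (61485) on chronic hypoxia membrane 2, where Rpl36a had its lowest intensity. Rpl21 and Rpl19 were below the background limit on that membrane while the neighbours at C10l and C10m read 64979 and 49257. The part of such neighbours in the members' values was not tested.

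The sign of the member differences turned on scaling and on single membranes. For Rpl36a the log2 difference was 0.28 after quantile normalization but -0.14 with cyclic loess, -0.16 with median scaling, -0.39 with no normalization and -0.32 when each membrane was scaled by the mean signal of its genes above background, which is nearest to the coefficient that the labels describe. With no normalization the median of all tested genes itself stood at -0.17, so that Rpl36a lay below it there, while Rpl21 (0.19) and Rpl19 (0.26) lay above. Rpl21 and Rpl19 kept a positive difference under each of these scalings. Rpl21 in turn differed by 1.10 without chronic hypoxia membrane 2 and by -0.15 without chronic hypoxia membrane 1. Rpl19 stayed above 0 whichever single membrane was left out, between 0.07 (without normoxia membrane 1) and 0.75 (without chronic hypoxia membrane 2).

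The intensities come in steps, of 51.5 on normoxia membrane 1 and chronic hypoxia membrane 1 and of 103 on normoxia membranes 2 and 3 and chronic hypoxia membrane 2, while chronic hypoxia membrane 3 showed no step of that kind. The labels give no scan format or batch. The steps were taken as a sign of different scan formats, which is an inference from the values, and these formats were treated as a batch. Within the first format, 1 membrane against 1, the log2 difference was 0.00 for Rpl36a, 1.16 for Rpl21 and 1.58 for Rpl19, the normoxia spot of Rpl19 being below its background limit. Within the second, chronic hypoxia membrane 2 against the mean of normoxia membranes 2 and 3, it was 0.51, -1.17 and -0.51, where the chronic hypoxia spots of Rpl21 and Rpl19 were below the limit. The differences of Rpl21 and Rpl19 thus did not hold across formats. With the format as a block, a fit in which chronic hypoxia membrane 3 carries no weight, the log2 differences were 0.29, -0.17 and 0.39 (limma adjusted p = 0.941, 0.971 and 0.922).

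**Figure D3:**
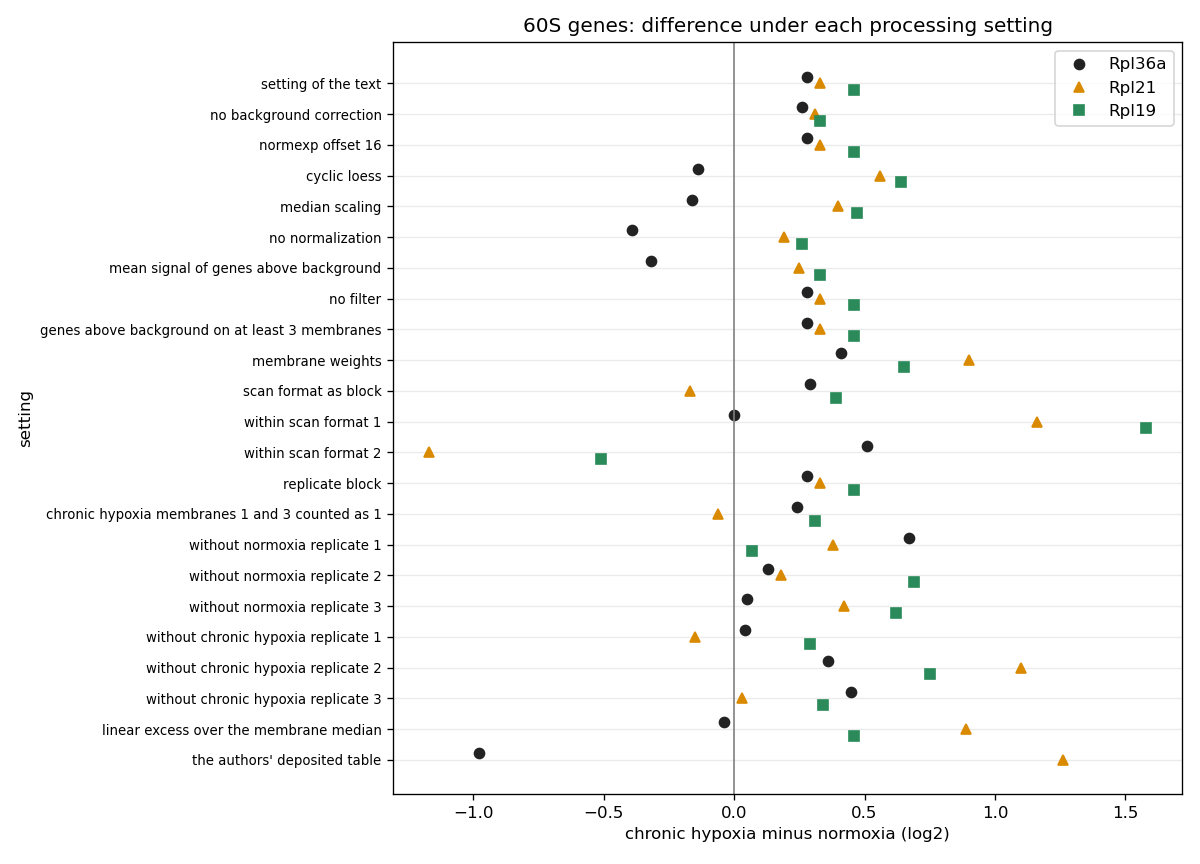
Log2 difference, chronic hypoxia minus normoxia, of Rpl36a (black circles), Rpl21 (orange triangles) and Rpl19 (green squares) under each processing setting, 1 setting per line. Rpl36a falls below 0 under 4 other scalings, in the linear values and in the authors' deposited table, and Rpl21 and Rpl19 change sides between the scan formats.

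A linear view of the same membranes was added after the data were seen. Each intensity was taken above its membrane's median and divided by the mean of that excess over the genes above background, so that 1 is the mean detected gene. Rpl36a had 2.43, 1.07 and 1.38 in normoxia and 2.78, 0.376 and 1.58 in chronic hypoxia, a ratio of group means of 0.972. Rpl21 had 0.417, 0.318 and 0.742 against 1.36, 0.0718 and 1.29, a ratio of 1.85. Rpl19 had 0.0731, 0.345 and 0.530 against 0.499, 0.0995 and 0.710, a ratio of 1.38. On this scale too, chronic hypoxia membrane 2 was the lowest of its group for all 3 members, and each group pair overlapped.

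The authors' deposited table gives 1 normalized intensity per gene and condition, an average over the 3 membranes with no spread. For Rpl36a the authors' deposited table has 27879 under normoxia against 14133 under chronic hypoxia, a ratio of 0.507. Rpl21 had 3021 and 7235 in the authors' deposited table, a ratio of 2.39. For Rpl19 the authors' deposited table lists 0 for normoxia and 3025 for chronic hypoxia, although it was above background on normoxia membranes 2 and 3. The authors' deposited table thus sets Rpl36a on the other side of Rpl21 and Rpl19, while the fit of the membranes gave all 3 a small positive value. Of the remaining large subunit genes, Rpl10, Rpl11, Rpl12 and Rpl13 had ratios of 0.645, 0.958, 0.607 and 0.658 in the authors' deposited table, below 1 also for the 3 (Rpl11, Rpl12 and Rpl13) that the fit of the membranes put above 0. The authors' deposited table lists 132 genes above 0 for both conditions, and the ratio of 16 of them, Rpl21 included, was 2 or more, while that of 12 was 0.5 or less.

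**Figure D4:**
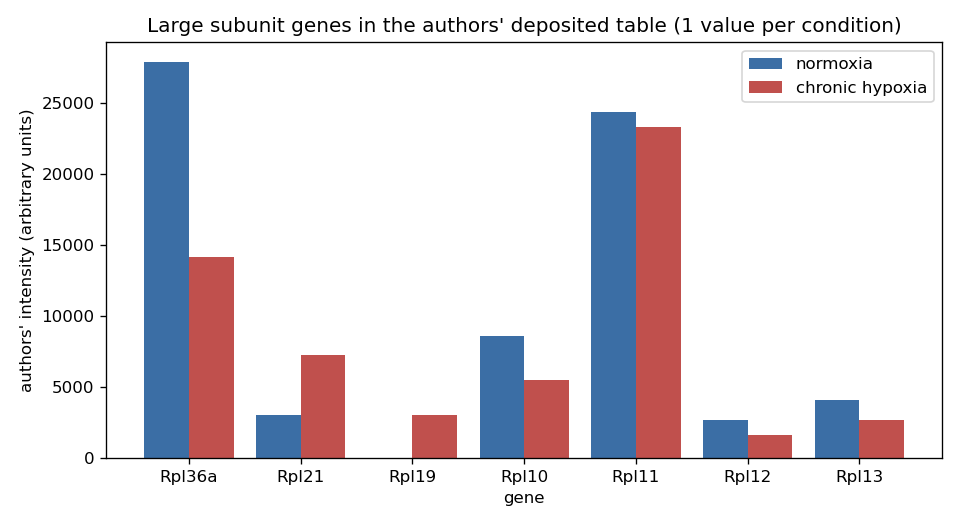
Intensity (arbitrary units) of the 7 large subunit genes in the authors' deposited table, 1 bar per gene and condition (blue normoxia, red chronic hypoxia) and no error, since each is a single average. Rpl36a is higher in normoxia (27879 against 14133) and Rpl21 in chronic hypoxia (7235 against 3021). Bars of different genes are not comparable.

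The mean profile of the members over the membranes, as deviations from each gene's own mean on the log2 scale, was -0.14, -0.23 and -0.17 in normoxia and 0.77, -0.58 and 0.35 in chronic hypoxia. Among 141 other genes above background on at least 3 membranes, the nearest by root mean square difference were subunit IV of cytochrome c oxidase, an enzyme of the respiratory chain (0.283), the masking protein of transforming growth factor beta (0.324) and polyubiquitin of the control row (0.382). A gene constant on all membranes would lie at 0.439, and 13 genes came nearer than that, none of them a ribosomal protein. Rpl13 was the nearest ribosomal protein (0.451, place 19 of 141), followed by Rps19 (0.475), and Rps3a stood at place 120. Among the members the distance was 0.69 between Rpl21 and Rpl19, which lie on adjoining spots, 0.81 between Rpl36a and Rpl21 and 0.83 between Rpl36a and Rpl19, against a median of 1.05 over all pairs of the 144 genes that passed the background limit on 3 or more membranes. These distances rest on 6 membranes that share an array design and, in the normalization, a common scale, and they describe these membranes alone.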

How the data were processed

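Radioactive nylon arrays from 2 conditions, 3 membranes each, were analysed. Per the labels' protocols, the authors quantified the membranes with AtlasImage V2.0, and the deposited intensity of each spot is linear, includes background and is not scaled between membranes. The authors' deposited table holds 1 intensity per gene and condition, averaged over 3 membranes and normalized to the mean signal. Its background rule is not given in the sources used here.

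Intensities were background corrected (normexp, offset 50), put on a log2 scale and quantile normalized (limma 3.58.1, R 4.3.3). Genes brighter than the 25th percentile of the membrane on 3 or more of 6 membranes were tested with lmFit and eBayes, group as the only term, adjusted by Benjamini-Hochberg over 1038 genes at 0.05. The fit was run on simulated data with independent normal noise, as a check of the estimated differences. Those data held no scan formats, offset or ceiling, so the check cannot speak to them. Other software was Python 3.11.15, pandas 2.3.3, numpy 2.4.6, scipy 1.17.1 and matplotlib 3.10.9. Symbols were assigned by hand from deposited names and found in RefSeq (GRCr8). Members, lists and background limit were chosen with earlier results of these data known. All members are named, with the 2 genes of smallest p in each related list and the 3 nearest profiles. Other genes were named after their values were seen. Alternatives covered background correction, scaling, filter, weights, batch, pairing and single membranes. A further gene of a related list is not reported here.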

Additional observations from a re-analysis of the deposited data

How the results depend on the processing

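Under 18 alternative fits 0 of 3 members were called, and 0 of all tested genes. The members passing the background limit on 3 or more membranes numbered 3 with a root mean square spread. Leaving out any single membrane had to give 3 as well, since the members passed on 6, 5 and 4 membranes, so that count tests nothing. The sign of Rpl36a turned to -0.14 (cyclic loess), -0.16 (median scaling), -0.39 (no normalization), -0.32 (mean signal), -0.04 (linear excess) and -0.98 (the authors' deposited table). Rpl21 turned to -0.17 with the scan format as a block, -1.17 within the second format, -0.06 with chronic hypoxia membranes 1 and 3 counted as 1, and lay between -0.15 and 1.10 when single membranes were left out, with -0.15 without chronic hypoxia membrane 1. Rpl19 turned to -0.51 within the second format. The median of the members was 1.16 within the first format, -0.51 within the second and 0.04 to 0.75 when single membranes were left out. The median of the 4 small subunit genes was 0.40 with no normalization, 1.73 and 0.25 within the formats and 0.50 to 0.93 without single membranes. The translation median was 0.33 with membrane weights, 0.30 and -1.21 within the formats and -0.67 to 0.33 without single membranes. The control row median was 0.43 and -0.60 within the formats and -0.44 to 0.29 without single membranes. Members whose groups did not overlap numbered 1 with cyclic loess and 0 to 2 without single membranes, where fewer values make a gap more likely. The share over all tested genes (13.9%) is given for the quantile-normalized fit of all 6 membranes alone. The counts under other settings thus have no share beside them and are not read as a result. The cause of the changes between settings was otherwise not tested. Deviations of same-numbered membranes correlated at 0.091, 0.114 and 0.023, and those of unlike-numbered membranes at -0.119 to 0.033. With 3 membranes per condition such small values cannot decide whether the numbers pair the membranes. With the number as a replicate block the median of the members stayed at 0.33 with 0 calls.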
